A study of Mus musculus with 8 samples.

Results

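The 4 ErbB receptors of the mouse (Egfr, Erbb2, Erbb3 and Erbb4) and 6 of their ligands (Nrg1, Nrg2, Areg, Ereg, Btc and Hbegf) were examined for DNA methylation in mammary tumors of a line that is driven by activated ErbB2. These 10 genes were chosen by name, as a receptor family with its ligands. A cytosine of a CpG was assigned to a gene when it lay in the gene body or in the 5000 bp upstream, and it was tested when it had 10 or more reads in all 8 libraries. Each of the 10 genes held at least 5 tested cytosines, as did 20757 of the 55450 annotated genes. The 10 genes together held 541 of the 567886 tested cytosines and 97 of the 113644 tested tiles (non-overlapping windows of 1000 bp). In all, 2931 cytosines of these genes were seen in at least 1 library, and the rest of them did not reach 10 reads in all 8.

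ErbB receptors are tyrosine kinases of the cell surface. A bound ligand lets a receptor pair with another member of the family, after which the kinases phosphorylate their tails and switch on the RAS-MAPK and PI3K-AKT pathways. These receptors direct the growth and branching of mammary ducts, and extra copies of the human gene ERBB2 mark a class of breast cancers.

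Tumors of the mouse mammary tumor line NIC-5231 grew in mammary fat pads of immunodeficient NSG mice, aged 5 to 7 weeks when the cells were injected. Groups of 5 mice were injected into the peritoneum every 2 days with vehicle (labelled DMSO), with C29 at a dose of 10 mg/kg, with 5-azadC at a dose of 1 mg/kg, or with both drugs at these doses (the combination). C29 is an inhibitor of the nuclear receptor ERRα, and 5-azadC, also named decitabine, is built into DNA and traps DNA methyltransferases there. All groups shared the line, the host strain and the solvent (saline with PEG and DMSO), and each was read by reduced representation bisulfite sequencing (RRBS) in 2 libraries, each made from the pooled DNA of 2 mice. No value therefore belongs to a single mouse, and all tumors come from 1 line. NIC tumors arise in mice in which the MMTV promoter drives an activated rat ErbB2 (Neu), and the mouse genome used for alignment holds no such transgene. Host stroma is also mouse tissue, so that its DNA and that of the tumor cells cannot be told apart.

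Total reads over the listed cytosines of the genome ranged from 51305736 to 81174026 per library. Among the tested cytosines of a gene, the median number of reads per library ranged from 22 (the lowest library, at Egfr) to 379.5 (the highest library, at Erbb2). Percentages of reads in a single library are given for the main regions with a 95% Wilson interval, which covers counting error only, because PCR copies were not marked and cytosines on the same read were counted one by one.

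No RNA was measured, so that the tissue could be checked only by the methylation of marker genes within 1000 bp of their start sites in the vehicle tumors. Of 10 mammary epithelial markers, 7 had tested cytosines there and 6 of these were below 10%, among them Epcam at 7.63%, Cdh1 at 6.45% and Krt18 at 5.22%, while Cldn4 was at 19.7%. Low values are common at start sites, since 53.1% of the 20455 start-site regions of all genes were below 10% and 23.6% were above 50%. Of 6 haematopoietic markers, 4 were tested and all 4 were above 50%, from 74.3% at Spi1 to 98.0% at Ptprc. These rest on few cytosines, with 2 each at Spi1, Ptprc and Vav1 and 6 at Lyl1. Of 4 fibroblast markers, 2 were tested, with Pdgfra at 0.075% (13 cytosines) and Col1a2 at 24.7% (4 cytosines). None of 3 endothelial markers was tested. Under both drugs Col1a2 was called higher (33.6 points) and Lyl1, a haematopoietic marker, was called lower (-34.3 points). Spi1 was called higher with C29 and under both drugs (28.2 points in each, with vehicle libraries at 100% and 48.5%). Of the start-site regions of all genes, 3.4% were called with C29 and 4.67% under both drugs. The Lyl1 call ended without DMSO replicate 2 (-18.5 points) and without C29+5-azadC replicate 1 (-20.6 points), and both Spi1 calls ended without DMSO replicate 2 (0 points). The part of these marker genes in the values of the ErbB genes was not tested.

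In vehicle tumors the ErbB genes were mostly unmethylated near start sites and mixed elsewhere. Of 318 tested cytosines within 1000 bp of a start site, 222 (69.8%) were below 10% methylated, beside 76.4% of all tested cytosines near start sites. Of the 223 away from start sites, 85 (38.1%) were above 90%, beside 39.2% of all cytosines in genes and away from start sites.

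**Figure D1:**
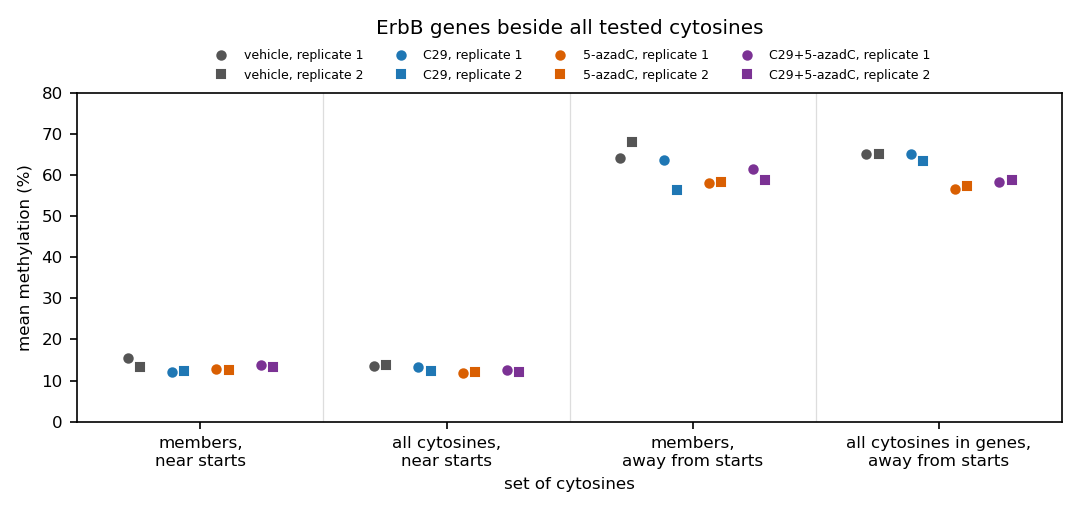
Mean methylation (percent) of the tested cytosines of the ErbB genes and of all tested cytosines, within 1000 bp of a start site and away from start sites, with 1 point per library and 2 libraries per group. Near start sites the ErbB genes lie between 12.1% and 15.6% in every library, and away from them the 4 libraries with 5-azadC lie between 58.0% and 61.6%. Of the libraries without 5-azadC, C29 replicate 2 lies below these, at 56.4%, and the others lie above, at 63.7%, 64.2% and 68.1%.

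The first question is what each drug did to these genes over the whole design, in which 4 libraries had 5-azadC and 4 did not. Over the 541 cytosines the libraries averaged 35.6% and 35.8% with vehicle, 33.4% and 30.4% with C29, 31.4% and 31.3% with 5-azadC, and 33.5% and 32.0% under both drugs. Both vehicle libraries were the highest, and the libraries with 5-azadC overlapped those of C29 alone. The 4 libraries with 5-azadC averaged 32.1% ± 1.03 and the others 33.8% ± 2.53 (SD, n = 4 each), a difference of -1.75 points that did not pass a two-sided exact permutation test (p = 0.257, where 0.0286 is the smallest that 4 against 4 allows). Over all 567886 tested cytosines the same difference was -3.37 points (exact p = 0.0286). For C29 the difference at the ErbB genes was -1.21 points (exact p = 0.4), and over all cytosines it was 0.0663 points (exact p = 1), from -0.698 to 0.771 points with 1 library left out. Both differences at the ErbB genes moved by over 1.5 times when 1 library was left out. For 5-azadC it was -2.89 points without C29 replicate 2, -1.15 points without DMSO replicate 1 and -1.08 points without DMSO replicate 2. For C29 it was -0.513 points without DMSO replicate 1, -0.439 points without DMSO replicate 2, -0.561 points without C29 replicate 2, -1.93 points without 5-azadC replicate 1 and -1.95 points without 5-azadC replicate 2, and it ran from -3.70 points (weighted by reads) to -0.351 points (5 reads) under the other settings.

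Near start sites the 4 libraries with 5-azadC differed from the others by -0.224 points at the ErbB genes and by -0.989 points over all cytosines near start sites. With 1 library left out the first of these ran from -0.615 points (without C29 replicate 1) to 0.547 points, in the opposite direction (without DMSO replicate 1). Away from start sites the ErbB genes averaged 59.2% with 5-azadC and 63.1% without, a difference of -3.93 points (exact permutation p = 0.171, n = 4 against 4), beside -6.95 points for all cytosines in genes away from start sites. It was -2.27 points without DMSO replicate 2 and -6.17 points without C29 replicate 2, while the value for all cytosines stayed between -7.36 and -6.55 points. There the receptors differed by -4.06 points (exact p = 0.0857) and the ligands by -3.87 points (exact p = 0.314), which was -1.89 points without DMSO replicate 2 and -6.55 points without C29 replicate 2.

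None of the 10 genes had every library with 5-azadC below every library without it, while 12.5% of all genes did, and none had them all above (0.308% of all genes). For C29 the counts were 0 below (0.954% of all genes) and 0 above (0.997%). Without single libraries the count below with 5-azadC was 1 without DMSO replicate 1 (Btc, beside 15.6% of all genes), 2 without C29 replicate 2 (Egfr and Hbegf, beside 18.5%), 1 without 5-azadC replicate 2 (Egfr, beside 15.7%) and 1 without C29+5-azadC replicate 1 (Nrg1, beside 17.7%). It was 1 at a minimum of 5 reads (Egfr, beside 13.1% of 22375 genes), and 0 without each of the other libraries, beside 15.5% to 17.9%. The mean of the gene was lower with 5-azadC for 9 of 10, all but Nrg2, for 7 to 9 of 10 under the alternatives of coverage, weighting, strand and extent (with Areg, Erbb4, Hbegf or Egfr higher in some), and for 8 to 10 with single libraries left out. The median difference over the 10 genes was -2.11 points, beside -1.87 over all genes. With C29, 8 of 10 genes had the lower mean (6 to 8 under the same alternatives and 7 to 10 with single libraries left out), with a median of -1.62 points beside 0.0244 over all genes. These medians moved with the settings. For 5-azadC the median ran from -3.36 points (20 reads) to -1.67 points (weighted by reads), and with 1 library left out it was -1.2 points without DMSO replicate 1, -1.29 points without DMSO replicate 2 and -1.3 points without C29+5-azadC replicate 2. The medians over all genes were not computed under these settings. For C29 it was -0.49 points at 5 reads, -0.55 points with strands summed and -0.88 points without the Erbb2 cytosines of 100 or more reads (an alternative chosen after seeing the data), and with 1 library left out it ran from -2.4 points (without 5-azadC replicate 2) to -1.08 points (without C29 replicate 2).

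**Figure D2:**
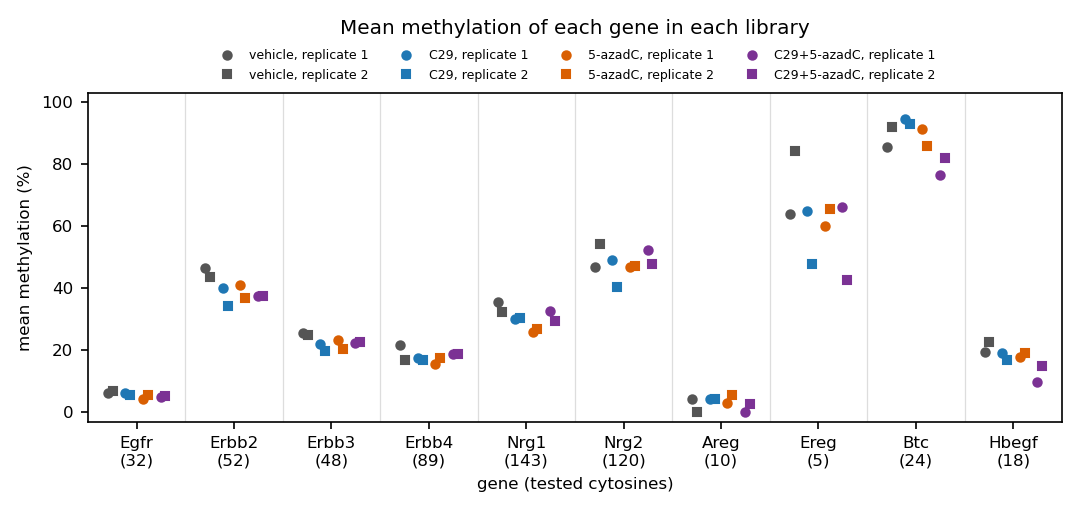
Mean methylation (percent) over the tested cytosines of each gene, with 1 point per library and the number of cytosines in parentheses. Egfr and Areg lie below 8% in every library, and Btc lies above 76%.

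Each treatment was then compared with the same 2 vehicle libraries, tile by tile, so that the 3 comparisons share their controls. A tile was called by the logistic likelihood-ratio test on its reads at a Benjamini-Hochberg q below 0.01, over all tiles of the genome, with a pooled difference of at least 25 percentage points. With C29, 11 of the 97 tiles were called (11.3%, beside 10.6% of all tiles), 7 of them lower (5.43% of all tiles) and 4 higher (5.21%). With 5-azadC there were 17 (17.5%, beside 15.4%), 15 lower (12.7% of all) and 2 higher (2.71%). Under both drugs there were 19 (19.6%, beside 15.1%), 13 lower (11.6% of all) and 6 higher (3.49%). Most calls lay in the genes with the most tested tiles, since Nrg1 held 3, 4 and 5 of them in its 26 tiles, in this order of comparisons, and Nrg2 held 3, 8 and 7 in its 25, while Areg held none.

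Both treated libraries lay on one side of both vehicle libraries in 7 of the tiles called with C29 (6.76% of all tiles), in 15 with 5-azadC (10.9%) and in 16 under both drugs (9.87%). Tiles with few cytosines made up most of the calls. Among the 39 tiles with 1 cytosine 8, 9 and 13 were called, beside 21.9%, 28.4% and 28% of all such tiles, and among the 40 with 3 or more 0, 3 and 3 were called, beside 3.41%, 6.32% and 6.11%. The replicates of a group also lay 25 points or more apart at 13 (vehicle), 27 (C29), 23 (5-azadC) and 24 (combination) of the 97 tiles, beside 18.3%, 19.7%, 23.3% and 25.8% of all tiles. Without DMSO replicate 1 the C29 count was 17 (17.5%, beside 16.1% of all tiles), without C29 replicate 1 it was 18 (18.6%, beside 16.2%) and without C29 replicate 2 it was 8 (8.25%, beside 14.6%).

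No start-site region (the cytosines within 1000 bp of any start site of a gene) was called by the logistic test for any of the 10 genes. That is 0 of 10 in each comparison, with 3.4% of the 20455 regions of all genes called with C29, 4.52% with 5-azadC and 4.67% under both drugs. Lower calls were 2.00%, 3.69% and 3.52% of all regions, higher calls were 1.40%, 0.826% and 1.16%, and calls with the libraries on one side were 2.25%, 3.21% and 3.28%. Without 5-azadC replicate 2, which leaves 5-azadC replicate 1 alone against vehicle, Btc was called (68.8 points on 1 cytosine with 16 reads), beside 7.35% of all regions.

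The logistic test takes no account of the variation between libraries, and edgeR's quasi-likelihood test does. Over all 8 libraries edgeR called 0 of 96 tiles of the ErbB genes for the 5-azadC effect (0% of 110049 tiles), with 6 at an unadjusted p under 0.05, beside 6.06% of all tiles, a smallest unadjusted p of 0.00151 (Egfr, n = 8 libraries) and a smallest q of 0.814. For the C29 effect it called 0 (0% of 110049 tiles), with 4 at an unadjusted p under 0.05 (2.63% of all tiles). The overdispersion-corrected F test on 4 libraries against 4 also called 0 of 97 (0% of 113644 tiles). There 15 had an unadjusted p under 0.05, beside 13.9% of all tiles. In the comparisons with vehicle, edgeR on 4 groups called 0 tiles in each (0% of all tiles). It had 2, 5 and 4 tiles of the ErbB genes at an unadjusted p under 0.05 (2.84%, 4.19% and 3.96% of all tiles). The F test called 0 in each (0% of all tiles), with 1, 10 and 9 at an unadjusted p under 0.05 (4.35%, 7.1% and 5.9% of all tiles). With 2 libraries per group the F test made no calls on simulated data, so its 0 here carries no information.

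Across the 8 libraries, every library with 5-azadC lay below every other library at 5 of the 97 tiles (5.15%, beside 5.34% of all tiles) and above at 1 (1.03%, beside 0.308%). For C29 the counts were 0 below (0.781% of all tiles) and 2 above (2.06%, beside 1.05%). These tiles lie in Egfr, Erbb2, Nrg1 and Nrg2 and are described with their genes.

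**Figure D3:**
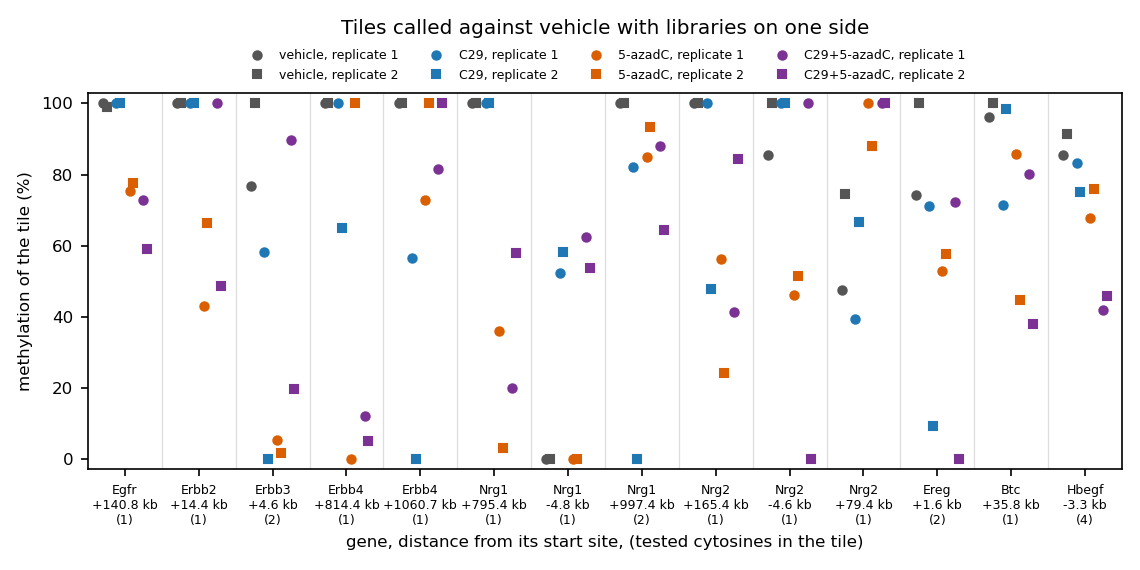
Methylation (percent) of 14 tiles, up to 3 per gene with the largest difference among those called against vehicle with libraries on one side, with 1 point per library. The label of each tile gives its gene, its distance from the start site in kb and, in parentheses, its number of tested cytosines.

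Egfr, the receptor for the ligands Areg, Ereg, Btc and Hbegf, lies at chr11:16752203-16918158 (ENSMUSG00000020122) and had 32 tested cytosines. They averaged 6.31% and 7.02% with vehicle, 6.25% and 5.59% with C29, 4.22% and 5.71% with 5-azadC, and 4.84% and 5.18% under both drugs. Only 5-azadC replicate 2 reached the range of the libraries without 5-azadC, and the difference was -1.31 points (exact permutation p = 0.0571, n = 4 against 4). It was -6.13 points at 20 reads, -1.99 points with strands summed and 0.332 points, in the opposite direction, weighted by reads. Its start-site tile, with 30 cytosines and 688 to 2309 reads, was at 0.043% and 0.879% in the vehicle libraries and between 0% and 0.855% in the 6 treated ones. The start of Egfr was thus unmethylated in all 8 libraries. A single cytosine in exon 19, 140843 bp from the start site, carried the one called tile. It is shown with its surroundings (GRCm38.p6, RefSeq genome, plus strand, with the tested CpG in capitals) because all 4 libraries with 5-azadC were below the others there.
Egfr chr11:16893026-16893066: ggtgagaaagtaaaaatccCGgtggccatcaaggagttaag
The cytosine was read as methylated in 100% (interval 93.2% to 100%, 53 reads) and 99.1% (95.1% to 99.8%, 112 reads) of reads with vehicle and in 100% in both C29 libraries. With 5-azadC it was at 75.4% (67.2% to 82.1%) and 77.7% (69.5% to 84.2%), and under both drugs at 72.7% (59.8% to 82.7%) and 59.1% (44.4% to 72.3%). No library with 5-azadC reached any library without it. The combination was called (-32.7 points, q = 1.2e-14, lower in 2 of 2 libraries), and 5-azadC alone missed the 25 points (-22.9 points, q = 3.55e-13). The other tested cytosine away from the start, in an intron 140714 bp from it and added after its values were seen, did not have this order. It was at 100% in both vehicle libraries, 100% and 56.7% with C29, 59.7% and 100% with 5-azadC, and 80.3% and 90.5% under both drugs.

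Erbb2, which has no known ligand of its own and is the favoured partner of the other receptors, lies at chr11:98412470-98437716 (ENSMUSG00000062312) and had 52 tested cytosines. Their mean was 46.7% and 43.6% with vehicle, 40.2% and 34.4% with C29, 41.2% and 36.8% with 5-azadC, and 37.6% in both libraries of the combination. Both vehicle libraries were above all 6 treated ones. Over the whole design the difference was -4.62 points for C29 (exact permutation p = 0.114, n = 4 against 4) and -2.91 points for 5-azadC (exact p = 0.371). For C29 it was -7.88 points at 20 reads and -8.64 points weighted by reads, and for 5-azadC -1.10 points without DMSO replicate 1 and -5.20 points without C29 replicate 2.

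Depth set Erbb2 apart from the other 9 genes. Of its 52 cytosines 29 had 100 or more reads on average over the libraries (55.8%), beside 2 in the other 9 genes together, both in Nrg1, and 2.68% of all tested cytosines. All 29 lay in exons. Its exon cytosines had a median of 323.25 reads and its intron and upstream cytosines 46.25, a ratio of 6.99. Of 8298 protein-coding genes with at least 5 tested cytosines of each kind, 1 had a higher ratio and 4 had more reads in exons, and the median ratio was 0.973. The deep cytosines were chosen for description after their values were seen.

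Neighbouring genes on the chromosome did not share this depth. Over Med1, Neurod2, Stard3, Tcap, Pgap3, Mien1, Grb7 and Ikzf3 the median number of reads per cytosine ranged from 28.9 (Grb7) to 78.4 (Ikzf3), with 5 cytosines of 100 or more reads, all in Pgap3, and Pnmt had no tested cytosine. None of the 6 neighbours with a tested start-site region (Med1, Neurod2, Stard3, Pgap3, Mien1 and Grb7) was called in any comparison by the logistic test. Reads from the endogenous gene and from a transgene of nearly the same exon sequence cannot be told apart here, and the part of the transgene in the depth and in the methylation of Erbb2 was not tested.

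**Figure D4:**
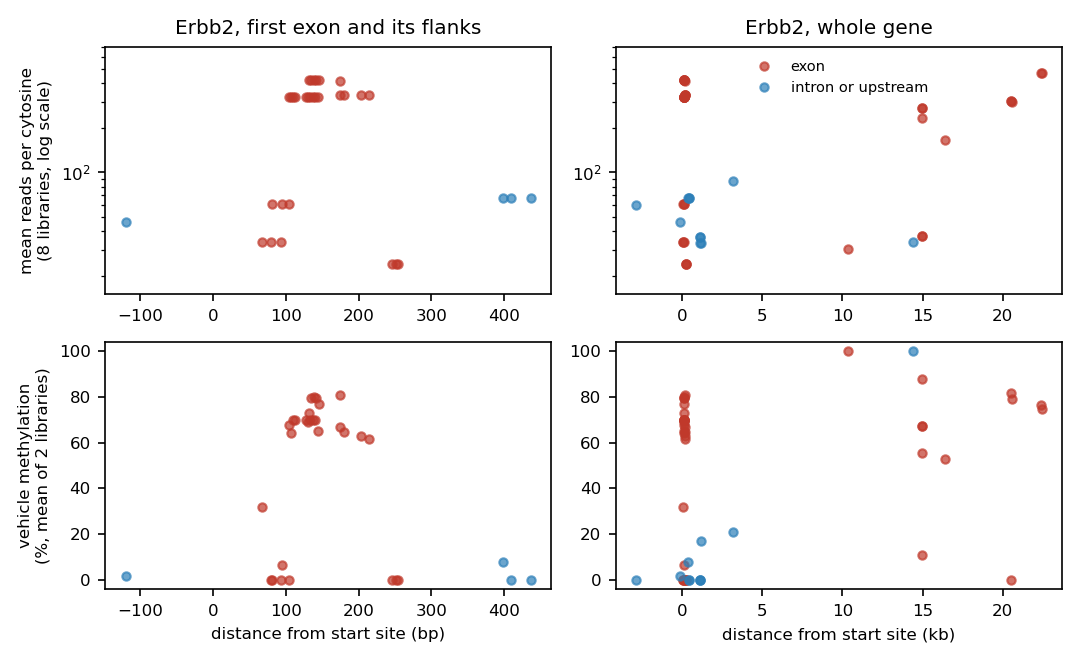
Mean reads per tested Erbb2 cytosine (log scale) and methylation in vehicle tumors (percent, mean of 2 libraries) against the distance from the start site, with exon cytosines in red and intron or upstream cytosines in blue. Deep cytosines lie in exons, and in exon 1 the deep block is methylated while most cytosines on both sides have fewer reads and low values.

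The coding part of exon 1 holds the downstream edge of a deep, methylated block, and parts of exons 17 and 23 show deep cytosines further along the gene (GRCm38.p6, RefSeq genome, plus strand, with tested CpGs in capitals).
Erbb2 exon 1, chr11:98412663-98412735: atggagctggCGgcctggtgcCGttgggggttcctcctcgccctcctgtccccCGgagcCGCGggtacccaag
Erbb2 exon 17, chr11:98432974-98433032: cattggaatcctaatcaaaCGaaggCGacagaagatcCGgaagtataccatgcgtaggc
Erbb2 exon 23, chr11:98434841-98434914: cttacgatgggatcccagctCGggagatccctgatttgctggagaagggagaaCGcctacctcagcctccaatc
In exon 1 the 20 deep cytosines from position 98412574 to 98412684 had 162 to 550 reads per library. Their mean was 73.0% and 68.0% with vehicle, 61.9% and 47.3% with C29, 75.5% and 56.9% with 5-azadC, and 56.7% and 55.2% under both drugs. Vehicle was above C29 and the combination in every library, and the 5-azadC replicates lay apart, with replicate 1 the highest of the 8. Cytosines of 1 strand were mostly covered by the same reads, and the strands differed within libraries. The 14 cytosines of the plus strand averaged 80.3% in 5-azadC replicate 1 and 50.7% in C29+5-azadC replicate 1, where the 6 of the minus strand averaged 64.3% and 70.5%. On the minus strand both vehicle libraries were the highest (83.0% and 73.4%), and the 5-azadC replicates lay close together (64.3% and 61.7%). On the plus strand vehicle (68.7% and 65.7%) was below 5-azadC replicate 1 and above the other treated libraries.

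On both sides of this block methylation was mostly low. The 6 cytosines before it, with 11 to 106 reads, averaged 12.7% in DMSO replicate 1 (63.6% at position 98412537) and at most 4.17% in the other 7 libraries, and the 10 after it, with 10 to 94 reads, averaged at most 3.21% in any library. Inside the block, the minus-strand cytosine at 98412575 had only 23 to 97 reads and no methylated read in 7 libraries (34.5% in C29+5-azadC replicate 1), while the plus-strand cytosine of the same CpG, with 200 to 517 reads, was at 67.7% in vehicle tumors. In the exon 1 sequence above, the first pair of capital CpGs belongs to the deep block (62.7% and 61.6% in vehicle tumors), and the 3 that follow were read at 10 to 65 reads with no methylated read in any library. As a result the start-site tile of Erbb2, on 5521 to 11094 reads per library, was at 69.0% (68.0% to 69.9%) and 63.2% (62.1% to 64.3%) with vehicle, 58.3% and 42.0% with C29, 67.6% and 53.6% with 5-azadC, and 53.2% and 52.4% under both drugs. Both libraries of C29 and of the combination were below both vehicle libraries, and the pooled differences of -14.6 and -13.4 points stayed under the 25 points of a call. For C29 the difference was -7.95 points without C29 replicate 2 and -24.2 points without C29 replicate 1.

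Further along the gene, exon 12 (3 deep cytosines), exon 15 (1), exon 17 (3) and exon 23 (2) held the other deep cytosines. The 3 deep cytosines of exon 12 averaged 53.4% and 49.3% with vehicle, 41.6% and 34.0% with C29, 44.4% and 41.7% with 5-azadC, and 42.1% and 44.4% under both drugs. In vehicle tumors these cytosines were at 87.6% (position 98427402), 10.8% (98427409) and 55.7% (98427438). All treated libraries were below vehicle in the mean of the 3, but not at each cytosine. The one at position 98427438 was at 51.9% and 59.4% with vehicle, 74.0% and 43.8% with C29, 60.9% and 71.8% with 5-azadC, and 65.8% and 56.0% under both drugs. The tile of all 5 tested exon 12 cytosines was added after its values were seen. There 5-azadC replicate 2 (49.4%) and C29+5-azadC replicate 1 (47.8%) lay between the vehicle libraries (47.0% and 52.0%), and the other treated libraries lay below both. The exon 15 cytosine was at 59.4% and 46.3% with vehicle, 54.3% and 82.1% with C29, 69.2% and 69.1% with 5-azadC, and 61.6% and 59.0% under both drugs. Both 5-azadC libraries were above vehicle there, by 17.6 points (9.76 points without DMSO replicate 2), too few for a call. In exon 23 the mean was 79.2% and 72.1% with vehicle, 55.5% and 78.3% with C29, 56.5% and 49.3% with 5-azadC, and 49.4% and 77.6% under both drugs. Each treated group except 5-azadC had a library inside the vehicle range. Exon 17 held a sharp contrast between cytosines of the same reads. The outer 2 capital CpGs of its sequence were at 81.6% and 78.9% in vehicle tumors. The middle one, at position 98433000, had no methylated read among 2402 in the 8 libraries. If every read carries a CpG there, this allows up to 0.125% over all libraries and up to 1.92% in the library with the fewest reads (156). Whether reads of the transgene carry a CpG at this position was not tested. The tile with the first pair of these CpGs was at 39.5% and 42.1% with vehicle, 34.5% and 37.3% with C29, 31.4% and 25% with 5-azadC, and 26.1% and 31.4% under both drugs. All libraries with 5-azadC were below all others in it, by -9.86 points on average, though it was singled out after its values were seen. The last CpG of the sequence, at position 98433012, did not have this order. It was at 75.4% and 82.3% with vehicle, 69.0% and 82.0% with C29, 76.9% and 52.8% with 5-azadC, and 53.5% and 73.7% under both drugs. In the mean of all 3 exon 17 cytosines 5-azadC replicate 1 (46.5%) was above C29 replicate 1 (46.0%).

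Averaged over the 29 deep cytosines, the libraries had 68.7% and 64.3% with vehicle, 57.4% and 49.7% with C29, 67.8% and 52.9% with 5-azadC, and 52.6% and 54.7% under both drugs. The 23 cytosines with fewer reads had 18.9% and 17.6% with vehicle, 18.6% and 15% with C29, 7.74% and 16.6% with 5-azadC, and 18.7% and 16.1% under both drugs. The C29 difference was -9.79 points over the deep cytosines (exact permutation p = 0.0857, n = 4 against 4) and 1.89 points over the others (exact p = 0.714), which was -0.595 points, in the opposite direction, without 5-azadC replicate 1 and 3.13 points without DMSO replicate 1. Without the deep Erbb2 cytosines, an alternative chosen after seeing the data, the mean over all 10 genes differed by -1.68 points with 5-azadC and by -0.72 points with C29, which with 1 library left out ran from -2.69 to -1.05 points and from -1.56 to 0.073 points. The one called Erbb2 tile with libraries on one side was a single intron cytosine 14391 bp from the start site, with 11 to 86 reads. It was at 100% in all 4 libraries without 5-azadC, at 42.9% (24.5% to 63.5%) and 66.3% (55.8% to 75.4%) with 5-azadC, and at 100% and 48.6% under both drugs. Its difference of -38.3 points with 5-azadC was -24.7 points, no longer a call, at a minimum of 5 reads, and -57.1 points without 5-azadC replicate 2.

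Erbb3, a receptor of neuregulins with a weak kinase that signals through its partner, lies at chr10:128567523-128589652 (ENSMUSG00000018166). Its 48 tested cytosines averaged 25.6% and 24.9% with vehicle, 22.2% and 19.9% with C29, 23.4% and 20.6% with 5-azadC, and 22.3% and 22.5% under both drugs. Vehicle was again the highest group, and the 5-azadC libraries lay on both sides of those of the combination, which were both above C29. Its start-site tile (5 cytosines, 116 to 238 reads) was at most at 0.741% in any library. The called tile of Erbb3 holds 2 cytosines in exon 3, 4614 and 4623 bp from the start site, on 40 to 194 reads (sequence of the plus strand of GRCm38.p6 from the RefSeq genome, opposite to the gene, with tested CpGs in capitals), and is shown because it was called in all 3 comparisons when no library was left out.
Erbb3 chr10:128585009-128585058: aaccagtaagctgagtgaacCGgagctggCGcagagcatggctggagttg
This exon 3 tile was at 76.8% (69.1% to 83.1%) and 100% (91.2% to 100%) with vehicle, 58.2% (50.9% to 65.0%) and 0% (0% to 3.77%) with C29, 5.21% (2.25% to 11.6%) and 1.67% (0.295% to 8.86%) with 5-azadC, and 89.7% (79.2% to 95.2%) and 19.6% (14.6% to 25.7%) under both drugs. Replicates of C29 and of the combination lay far apart, and only the 5-azadC libraries lay close together. The differences were -44.1 points with C29, -78.2 points with 5-azadC and -46.3 points under both drugs, where 1 library lay within the vehicle range. The C29 difference was -23.9 points, no longer a call, without C29 replicate 2, -82.0 points without C29 replicate 1 and -8.96 points, no longer a call, at a minimum of 5 reads. For the combination it was 7.63 points, in the opposite direction and no longer a call, without C29+5-azadC replicate 2 and -62.4 points without C29+5-azadC replicate 1. With 5-azadC it stayed between -96.2 and -73.0 points with any library left out.

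Erbb4, a neuregulin receptor that acts in lactation, lies at chr1:68032186-69108059 (ENSMUSG00000062209) and had 89 tested cytosines. Their mean was 21.8% and 17% with vehicle, 17.5% and 16.9% with C29, 15.6% and 17.6% with 5-azadC, and 19.0% and 18.9% under both drugs. The combination lay above C29 and above 5-azadC and inside the range of the vehicle replicates, and the 5-azadC difference was -0.512 points (exact permutation p = 0.829, n = 4 against 4). Its direction did not hold, since it was 0.647 points without DMSO replicate 1, 0.202 points without 5-azadC replicate 1 and 0.12 points at 20 reads, beside -0.968 points without C29 replicate 2 and -2.35 points weighted by reads. Unlike those of Egfr and Erbb3, its start-site tile was partly methylated. On 18 cytosines and 765 to 1389 reads it was at 25% (22.8% to 27.3%) and 7.50% (6.12% to 9.18%) with vehicle and between 9.41% and 16.5% in the treated libraries. The vehicle replicates were the extremes of the 8, so that all treated groups lay inside the vehicle range.

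Erbb4 had 2 named tiles, both of 1 intron cytosine that was at 100% in both vehicle libraries. The cytosine 814366 bp from the start site, on 10 to 58 reads, was at 100% and 64.8% with C29, 0% and 100% with 5-azadC, and 12.1% (5.97% to 22.9%) and 5.00% (0.888% to 23.6%) under both drugs, a difference of -89.7 points for the combination. With C29 (-29.7 points) and with 5-azadC (-37.9 points) it was called on 1 low library each, and both were 0 points without that library. The 5-azadC difference was -100 points without 5-azadC replicate 2. The cytosine 1060655 bp from the start site, on 14 to 62 reads, was at 56.5% (44.1% to 68.1%) and 0% (0% to 21.5%) with C29, -53.9 points that were -100 points without C29 replicate 1. Its libraries with 5-azadC were at 72.7% and 100%, and those of the combination at 81.5% and 100%.

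Nrg1, a neuregulin that binds Erbb3 and Erbb4, lies at chr8:31814551-32884029 (ENSMUSG00000062991), with 143 tested cytosines. The libraries averaged 35.7% and 32.4% with vehicle, 30.0% and 30.4% with C29, 26.0% and 27.0% with 5-azadC, and 32.5% and 29.6% under both drugs. The 5-azadC libraries were the lowest, and those of the combination reached into the vehicle range. With 5-azadC the difference over the design was -3.34 points (exact permutation p = 0.143, n = 4 against 4), -2.15 points without DMSO replicate 1 and -5.12 points at 20 reads. The tile upstream of its start site, which held 13 tested cytosines between -722 and -789 bp, is shown for the density of its CpGs (GRCm38.p6, RefSeq genome, plus strand, opposite to the gene, with tested CpGs in capitals).
Nrg1 upstream, chr8:32884731-32884838: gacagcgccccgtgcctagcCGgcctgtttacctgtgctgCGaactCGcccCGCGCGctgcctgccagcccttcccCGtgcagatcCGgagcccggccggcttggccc
On 528 to 1232 reads this stretch was at 26.8% (23.9% to 29.9%) and 21.6% (19.1% to 24.4%) with vehicle, 16.8% (14.8% to 19.0%) and 9.62% (8.08% to 11.4%) with C29, 13.7% (11.5% to 16.4%) and 17.2% (14.9% to 19.9%) with 5-azadC, and 9.47% (7.26% to 12.3%) and 8.0% (6.28% to 10.1%) under both drugs. All 6 treated libraries were below both vehicle libraries. The pooled differences were -10.8 points with C29, -8.46 points with 5-azadC and -15.5 points under both drugs, none of them large enough for a call, and the 3 share the vehicle libraries. The adjoining tile on the other side of the start site (16 cytosines, 200 to 537 bp inside the gene, 382 to 1214 reads), added after its values were seen, did not have this order. It was at 41.2% and 29.7% with vehicle, 18.4% and 29.9% with C29, 23.6% and 34.2% with 5-azadC, and 55.5% and 29.1% under both drugs, with pooled differences of -8.79, -7.17 and 6.61 points. With 1 library left out these ran from -16.0 to -4.12, from -14.0 to -0.194 and from -5.26 to 21.1 points, so that the direction of the last did not hold.

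In Nrg1, 3 tiles were named by the rule for called tiles, and their cytosines are shown to give their identity (GRCm38.p6, RefSeq genome, plus strand, tested CpGs in capitals).
Nrg1 intron, chr8:32088607-32088647: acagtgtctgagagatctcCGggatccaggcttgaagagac
Nrg1 upstream, chr8:32888815-32888855: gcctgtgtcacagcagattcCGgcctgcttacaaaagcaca
Nrg1 intron, chr8:31886584-31886659: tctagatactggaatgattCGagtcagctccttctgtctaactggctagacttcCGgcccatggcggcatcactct
The intron cytosine at 32088627, on 25 to 143 reads, was at 100% in all 4 libraries without 5-azadC (lowest interval bound 92.7%), at 36.0% (20.2% to 55.5%) and 2.94% (0.521% to 14.9%) with 5-azadC, and at 19.8% (12.9% to 29.1%) and 58.0% (47.5% to 67.7%) under both drugs. Every library with 5-azadC was below every other. It was called with 5-azadC (-83.1 points, q = 6.77e-42) and under both drugs (-61.5 points, q = 1.87e-45), each in 2 of 2 libraries, and edgeR gave an unadjusted p of 0.00289 and a q of 0.814 for its 5-azadC effect.

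The upstream cytosine, -4806 bp from the start site and inside exon 4 of the noncoding gene Gm3985, split the libraries by C29. It had no methylated read in the vehicle libraries (13 and 10 reads, upper bounds 22.8% and 27.8%) nor in the 5-azadC libraries (28 and 42 reads), and was at 52.3% (37.9% to 66.2%) and 58.1% (40.8% to 73.6%) with C29 and at 62.5% (42.7% to 78.8%) and 53.7% (38.7% to 67.9%) under both drugs. The 4 libraries with C29 were all above the 4 without it. The C29 difference of 54.7 points was 14.0 points, no longer a call, when the read minimum was asked of the 4 compared libraries alone. At the intron pair 997390 bp from the start site, vehicle was at 100% in both libraries, C29 at 82.0% and 0%, 5-azadC at 84.9% and 93.3%, and the combination at 88.1% and 64.3%. Its C29 difference of -47.4 points was -18.0 points, no longer a call, without C29 replicate 2 and -100 points without C29 replicate 1.

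Among the tiles in which all libraries with 5-azadC were lower, 2 others lie in Nrg1 introns and were singled out after their values were seen. The tile of 39 cytosines 875148 bp from the start site, on 1229 to 2515 reads, was nearly unmethylated, at 2.89% and 1.80% with vehicle, 2.52% and 3.19% with C29, 0% and 0.04% with 5-azadC, and 1.14% and 0.803% under both drugs. The tile of 3 cytosines 998137 bp from the start site was at 100% and 86.2% with vehicle, 96.0% and 100% with C29, 67.0% and 85.6% with 5-azadC, and 85.5% and 83.2% under both drugs. Differences over the design were -2.10 points for the tile with many reads and -15.2 points for the other, which had 76 to 184 reads.

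Nrg2, a second neuregulin, lies at chr18:36017652-36197380 (ENSMUSG00000060275), with 120 tested cytosines. The libraries averaged 46.7% and 54.4% with vehicle, 49.0% and 40.6% with C29, 46.8% and 47.1% with 5-azadC, and 52.3% and 47.8% under both drugs. The 5-azadC and combination libraries lay inside the range of the vehicle replicates, and it was the one gene whose mean was not lower with 5-azadC (0.851 points, exact permutation p = 0.886, n = 4 against 4). The direction did not hold, since the difference was -1.52 points without C29 replicate 2, -0.425 points without C29+5-azadC replicate 1 and -0.84 points weighted by reads, beside 3.10 points without DMSO replicate 2. Its start-site tile (19 cytosines, 565 to 1170 reads) was at most at 3.14% in any library.

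Each of the 3 named tiles of Nrg2 held 1 cytosine. The intron cytosine 165372 bp from the start site (11 to 141 reads) was at 100% with vehicle, 100% and 47.7% with C29, 56.2% and 24.1% with 5-azadC, and 41.3% and 84.5% under both drugs. Its 5-azadC difference of -63.5 points lost the call at a minimum of 5 reads (-19.7 points) and with the strands of a CpG summed (-22.6 points). For the combination it was -34.6 points, -15.5 points without C29+5-azadC replicate 1, -58.7 points without C29+5-azadC replicate 2, and 2.90 or 5.56 points, in the opposite direction, at 5 reads or with strands summed. The cytosine -4584 bp from the start site (15 to 119 reads) was at 85.5% and 100% with vehicle, 100% in both C29 libraries, 46.2% and 51.4% with 5-azadC, and 100% and 0% under both drugs.

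Methylation was higher with 5-azadC at the Nrg2 intron cytosine 79363 bp from the start site, on 12 to 75 reads. It was at 47.5% (35.3% to 60.0%) and 74.5% (61.1% to 84.5%) with vehicle, 39.4% and 66.7% with C29, 100% (77.2% to 100%) and 88.0% (78.7% to 93.6%) with 5-azadC, and 100% in both libraries of the combination. All 4 libraries with 5-azadC were above the other 4. The difference of 29.8 points with 5-azadC was 15.3 points, no longer a call, without DMSO replicate 1, and it was -1.80 points both with strands summed and with the read minimum in 4 libraries. For the combination it was 40 points, 25.5 points without DMSO replicate 1 and 23.9 points, no longer a call, with strands summed. At another intron cytosine, 14568 bp from the start site and singled out after its values were seen, the 4 libraries with C29 were above the others, with 59.5% and 78.5% for C29 and 52.9% and 60.8% for the combination against 19.6% and 48.7% for vehicle and 51.0% and 26.5% for 5-azadC.

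Areg (amphiregulin), the Egfr ligand that acts downstream of estrogen in duct growth, lies at chr5:91139599-91148432 (ENSMUSG00000029378), with 10 tested cytosines. Its libraries averaged 4.44% and 0% with vehicle, 4.42% and 4.21% with C29, 2.89% and 5.71% with 5-azadC, and 0% and 2.75% under both drugs. The vehicle replicates overlapped every treated group, and the combination lay below C29 and below 5-azadC. The start-site tile of Areg (8 cytosines, 195 to 886 reads) had no methylated read in both vehicle libraries, both 5-azadC libraries and C29+5-azadC replicate 1, and was at 0.513% and 1.44% with C29 and 4.86% in C29+5-azadC replicate 2. The start of Areg was close to unmethylated in every library. The upper interval bounds of the vehicle libraries were 0.514% and 0.845%. The other 2 cytosines, in an exon and on 35 to 153 reads, were at 22.2% and 0% with vehicle, 20.5% and 15.9% with C29, 14.4% and 28.6% with 5-azadC, and 0% in both libraries of the combination, so that the vehicle replicates spanned most of the range.

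Ereg (epiregulin), a ligand of Egfr and Erbb4, lies at chr5:91074622-91093646 (ENSMUSG00000029377) and had only 5 tested cytosines. Over these the libraries averaged 63.9% and 84.3% with vehicle, 64.9% and 47.7% with C29, 60.2% and 65.5% with 5-azadC, and 66.3% and 42.5% under both drugs. The groups overlapped, with -6.59 points for 5-azadC (exact permutation p = 0.457, n = 4 against 4). This was -0.235 points without DMSO replicate 2, -1.23 points without C29+5-azadC replicate 2 and -12.4 points without C29 replicate 2. Among the other settings it was -0.985 points weighted by reads, -11.4 points at 20 reads, -10.7 points with strands summed and -17.9 points in the gene body only. The 3 of its start-site tile, -308 to -481 bp from the start site, were partly methylated, and they are shown for this (GRCm38.p6, RefSeq genome, plus strand, tested CpGs in capitals). The stretch also lies in the annotated gene Gm19610.
Ereg upstream, chr5:91074121-91074334: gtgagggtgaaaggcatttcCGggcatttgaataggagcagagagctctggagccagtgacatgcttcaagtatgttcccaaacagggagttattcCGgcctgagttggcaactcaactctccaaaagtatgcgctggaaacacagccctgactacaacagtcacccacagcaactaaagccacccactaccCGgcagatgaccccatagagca
On 97 to 294 reads it was at 56.7% (49.8% to 63.4%) and 64.5% (57.1% to 71.3%) with vehicle, 48.1% (39.7% to 56.6%) and 73.3% (66.1% to 79.5%) with C29, 69.6% and 64.6% with 5-azadC, and 58.8% and 72.1% under both drugs. The C29 replicates were the extremes of the 8. The other 2 cytosines, in an intron 1614 and 1623 bp from the start site, formed the called tile of Ereg (44 to 124 reads). It was at 74.2% and 100% with vehicle, 71.2% and 9.09% with C29, 52.9% and 57.7% with 5-azadC, and 72.2% and 0% under both drugs. The C29 and combination calls (-39.8 and -38.2 points) ended without C29 replicate 2 (-11.7 points) and without C29+5-azadC replicate 2 (-10.8 points) and were -73.9 and -83.0 points without replicate 1 of the treated group. The 5-azadC call of -28.0 points ended without DMSO replicate 2 (-19.2 points) and was -45.0 points without DMSO replicate 1.

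Btc (betacellulin), a ligand of Egfr and Erbb4, lies at chr5:91357261-91402994 (ENSMUSG00000082361), with 24 tested cytosines, 22 of them in introns. It had the highest means of the 10 genes, at 85.6% and 91.9% with vehicle, 94.6% and 92.9% with C29, 91.5% and 85.9% with 5-azadC, and 76.5% and 82.0% under both drugs. The combination was the lowest group, below all 6 other libraries. Group means were 88.7% with vehicle, 93.8% with C29, 88.7% with 5-azadC and 79.2% under both drugs, so 5-azadC alone did not differ from vehicle. The 5-azadC difference over the design was -7.27 points (exact permutation p = 0.0857, n = 4 against 4). It was -4.79 points without C29+5-azadC replicate 1, -1.48 points at 20 reads, -4.81 points weighted by reads and -4.83 points with strands summed. Only 1 cytosine lay near the start site (10 to 59 reads). It had no methylated read in 7 libraries and was at 68.8% (44.4% to 85.8%) in 5-azadC replicate 1. The called intron cytosine 35806 bp from the start site (11 to 107 reads) was at 96.3% and 100% with vehicle, 71.4% and 98.6% with C29, 85.7% and 44.8% with 5-azadC, and 80.2% and 38.0% under both drugs. Its calls of -32.0 points with 5-azadC and -32.5 points under both drugs ended without replicate 2 of the treated group (-10.9 and -16.4 points) and with strands summed (-12.4 and -12.5 points), and were -51.8 and -58.6 points without replicate 1 of the treated group.

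Hbegf, the heparin-binding ligand of Egfr and Erbb4, lies at chr18:36504927-36515805 (ENSMUSG00000024486), with 18 tested cytosines. They averaged 19.5% and 22.6% with vehicle, 19.2% and 17% with C29, 17.7% and 19.0% with 5-azadC, and 9.65% and 14.9% under both drugs. The combination was the lowest group, and the 5-azadC difference over the design was -4.27 points (exact permutation p = 0.143, n = 4 against 4). It was -2.38 points without C29+5-azadC replicate 1, -2.54 points at 5 reads, -25.2 points at 20 reads, -11.1 points weighted by reads and 1.85 points, in the opposite direction, in the gene body only. Its start-site tile (12 cytosines, 267 to 690 reads) had no methylated read in 6 libraries, and was at 0.835% in C29 replicate 2 and 3.75% in C29+5-azadC replicate 2. Further upstream, 4 cytosines from -3313 to -3355 bp, on 210 to 344 reads, were at 85.4% (80.5% to 89.3%) and 91.3% (87.8% to 93.8%) with vehicle and 83.1% (78.8% to 86.7%) and 75.2% (69.8% to 79.9%) with C29. They were at 67.7% (62.4% to 72.7%) and 76.0% (70.8% to 80.6%) with 5-azadC and 41.9% (35.8% to 48.3%) and 45.7% (39.1% to 52.5%) under both drugs. All 6 treated libraries were below both vehicle libraries, and both libraries of the combination were below all others. The combination was called (-45.1 points, q = 8.47e-54, lower in 2 of 2 libraries), from -41.7 to -47.6 points with any library left out. The differences of -9.25 points with C29 (-13.7 to -5.69 points with 1 library left out) and -17.1 points with 5-azadC (-21.1 to -12.8 points) were not large enough for a call, and edgeR gave the 5-azadC effect of this tile an unadjusted p of 0.0222 (q = 0.814).

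The RefSeq promoter table (GRCm38.p6, a short stretch around each start) held 5 of the 10 genes. Their promoters held 15 (Egfr), 21 (Erbb2), 17 (Erbb4), 21 (Areg) and 5 (Btc) CG pairs, a motif that reads the same on both strands, beside a median of 7 over 32851 promoters. As many or more were found in 34.6%, 24.8%, 31.4%, 24.8% and 62.0% of all promoters.

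Among 52 other genes of the pathway, downstream of the receptors or among their regulators, 49 had a tested start-site region, and 42 of these were below 10% in vehicle tumors, beside 53.1% of the 20455 regions of all genes. In vehicle tumors, 3 of 3 tested genes of ligand shedding and processing were below 10%, as were 6 of 8 adaptors, 10 of 10 genes of the RAS-MAPK cascade, 7 of 8 of the PI3K pathway, 4 of 6 other effectors, 10 of 10 negative regulators and 2 of 4 other ligands. The one above 50% was Nrg3, a ligand of Erbb4, at 71.4%. By the logistic test 0 of 49 were called with C29, 0 with 5-azadC and 1, lower, under both drugs, beside 3.4%, 4.52% and 4.67% of the regions of all genes. That gene was Stat5a, a transcription factor that Erbb4 activates in milk-forming cells. Its 11 cytosines (190 to 513 reads) were at 56.2% and 41.4% with vehicle, 47.7% and 32.2% with C29, 33.7% and 53.3% with 5-azadC, and 14.9% and 23.7% under both drugs, a difference of -28.4 points. The call ended without DMSO replicate 1 (-22.2 points) and without C29+5-azadC replicate 1 (-23.9 points). Both libraries of the combination were below all others. Over the 272 tiles of the 52 genes, 21 (7.72%) were called with C29, 9 of them lower, 27 (9.93%) with 5-azadC, 23 lower, and 29 (10.7%) under both drugs, 26 lower. Over all tiles of the genome 10.6%, 15.4% and 15.1% were called, and 5.43%, 12.7% and 11.6% were lower.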

How the data were processed

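DNA of 8 libraries (4 groups, 2 libraries per group, 2 pooled mice per library) was read by RRBS. Per the labels, the authors aligned the reads to mm10 (GRCm38) with Bismark 0.20.0, and they also list FastQC 0.11.8, Trim Galore 0.4.1 and methylKit 1.7.0. The deposited files give, for each cytosine of a CpG and strand, the counts of reads that cover it. The deposited files also give the fraction of these reads that were methylated, from which methylated reads were recovered. Spike-in DNA was left out of the tested cytosines. Its unmethylated control was read as methylated at 0.216% (C29+5-azadC replicate 2) to 0.329% (C29 replicate 2). Its methylated control was at 97.5% (5-azadC replicate 1) to 98.3% (C29+5-azadC replicate 1). No value was corrected for these. Libraries held 1773317 to 2195210 cytosines with a median of 21 to 30 reads.

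Cytosines with at least 10 reads in all 8 libraries were tested, strands apart. Genes, exons and start sites came from GENCODE M21, and a gene included 5000 bp upstream. Reads were summed over 1000 bp tiles and over cytosines within 1000 bp of any start site. Each treatment was compared with vehicle by a logistic likelihood-ratio test, which is the default of methylKit and does not model overdispersion, with Benjamini-Hochberg adjustment over all tiles or regions and a call at q below 0.01 and 25 points. Means per library, unweighted over cytosines, were compared by exact two-sided permutation of 4 against 4 libraries. edgeR 4.0.16 fitted methylated and unmethylated counts with a C29 and a 5-azadC term, a common dispersion, library offsets of total reads, no normalization factors and a quasi-likelihood test (q below 0.05). The F test with overdispersion was run on 4 libraries against 4 and on each treatment against vehicle. With 2 libraries per group the F test made no calls on simulated data, so its count of 0 there carries no information. The logistic test, its form with a replicate block, the F test with 2 libraries per group and the edgeR model with 2 drug terms were run on simulated data. The simulation for the logistic and F tests held counting error only, with no variation between libraries. The permutation test, the F test on 4 libraries against 4 and the other edgeR models were not run on simulated data.

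The text names the tile of the start site of each gene and up to 3 called tiles per gene with the largest difference among those with both treated libraries on one side of both vehicle libraries. Other tiles are marked as chosen after their values were seen. Alternatives were coverage of 5 or 20 reads or in the 4 compared libraries alone, no cytosines of the highest 0.1% of coverage, 500 bp tiles or start flanks, strands summed, at least 3 cytosines per tile, 10 points, the F test, edgeR, a replicate block, libraries on one side, weighting by reads, the gene body only, and each library left out. Leaving out the Erbb2 cytosines of 100 or more reads was added after seeing the data. The members and lists (pathway genes, markers and neighbours of Erbb2) were chosen with earlier results of these data known. R 4.3.3, limma 3.58.1, Python 3.11.15, NumPy 2.4.6, SciPy 1.17.1, pandas 2.3.3, matplotlib 3.10.9, pysam 0.24.0 and samtools 1.23.1 were used.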

Additional observations from a re-analysis of the deposited data

Results flagged for a closer look

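Among the means of the 10 genes and the tiles named by the rule, 4 places had an effect of a drug with opposite signs in every library, depending on whether the other drug was given. These are 4 of 68 effects searched (5.88%), 3 of 20 over gene means and 1 of 48 over named tiles, beside 4.57% of effects over the means of all genes and 3.71% over all tiles. Over all 97 tiles of the ErbB genes it was 7 of 194 (3.61%). None of these differences was tested, and with 2 libraries per group the gap test for outlying libraries does not apply. Over the Erbb3 cytosines, 5-azadC came with -3.25 points without C29 and 1.36 points with it, a difference of 4.61 points. There C29 replicate 1 (22.2%) lay close to the combination (22.3% and 22.5%), and C29 replicate 2 was at 19.9%. Over the Nrg1 cytosines, C29 came with -3.86 points without 5-azadC and 4.51 points with it, a difference of 8.38 points. Over the Btc cytosines, C29 came with 5.03 points without 5-azadC and -9.45 points with it, a difference of -14.48 points. There DMSO replicate 2 (91.9%) lay close to C29 replicate 2 (92.9%), and DMSO replicate 1 was at 85.6%. In the Erbb3 exon 3 tile, C29 came with -59.33 points without 5-azadC and 51.18 points with it, a difference of 110.51 points. The C29+5-azadC replicates of this tile lay far apart (89.7% and 19.6%). Its pooled C29 difference from vehicle was -23.9 points without C29 replicate 2 and -82.0 points without C29 replicate 1. All these effects rest on 2 libraries against 2 and are given with all libraries only, so their size can depend on 1 library.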

How the results depend on the processing

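Called tiles are given in the order C29, 5-azadC and combination (11, 17 and 19 in the main setting). They numbered 4, 7 and 9 of 57 at 20 reads (7.96%, 12.6% and 12% of all tiles). With at least 3 cytosines per tile they numbered 0, 3 and 3 of 40 (3.41%, 6.32% and 6.11%). At 10 points they numbered 32, 45 and 38 of 97 (31.5%, 42.8% and 40%). The F test and edgeR on 4 groups each called 0, 0 and 0, beside 0% of all tiles. The C29 count was also 17 of 123 with the read minimum in the 4 compared libraries (12.5% of all tiles) and 7 of 97 with libraries on one side (6.76%). Under the other settings the counts were 10 to 11, 14 to 22 and 16 to 23, beside 10.2% to 11.1%, 10.9% to 17.7% and 9.87% to 17.1% of all tiles. The cause was not tested, except that 20 reads and 3 cytosines leave fewer tiles.

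With 1 library left out the counts ranged from 8 to 18 (17 without DMSO replicate 1 and 18 without C29 replicate 1), from 15 to 24 and from 18 to 24, beside 14.3% to 16.2%, 18.9% to 21.9% and 18.9% to 20.9% of all tiles. Called start-site regions ranged from 0 to 0, from 0 to 1 (Btc, without 5-azadC replicate 2, beside 7.35% of all regions) and from 0 to 0. Genes with every library with 5-azadC below the others ranged from 0 to 2, beside 15.5% to 18.5% of all genes, and numbered 1 at 5 reads, beside 13.1%. The mean difference over the 541 cytosines of the ErbB genes ranged from -2.89 to -1.08 points for 5-azadC and from -1.95 to -0.439 points for C29. Under the other settings these were -2.78 to -1.68 points and -3.70 to -0.351 points.

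Among the called tiles of the report, in the opposite direction were the Nrg2 tile 79363 bp from the start site with 5-azadC (-1.80 points with strands summed and with the read minimum in 4 libraries) and the Nrg2 tile 165372 bp from it with the combination (2.90 points at 5 reads and 5.56 points with strands summed), as was the Erbb3 exon 3 tile with the combination without C29+5-azadC replicate 2 (7.63 points). Gene means, which carry no call, also turned. With 5-azadC these were Erbb4 (0.12 points at 20 reads, 0.647 without DMSO replicate 1, 0.202 without 5-azadC replicate 1), Nrg2 (-0.84 weighted by reads, -1.52 without C29 replicate 2, -0.425 without C29+5-azadC replicate 1), Areg (1.77 at 5 reads, 1.51 at 20 reads, 0.517 without C29+5-azadC replicate 1), Hbegf (1.85 in the gene body only) and Egfr (0.332 weighted by reads). With C29 the means of 8 genes, all but Ereg and Hbegf, turned under some setting. The cause was not tested. Of the values for single tiles and genes, 492 kept their call or stayed within the spread, 39 lost the call, 22 moved by more than the spread and 4 were counted as reversed. These counts do not set apart the turned gene means listed above, since a value within the spread can have changed direction.

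With a replicate block the counts were 10, 17 and 19 tiles, beside 10.4%, 15.2% and 14.9% of all tiles. Start-site regions called with the block numbered 0 in each comparison, and their share over all genes was not computed. With the block edgeR called 0 tiles for the 5-azadC effect (0% of 110049 tiles). Between groups, libraries of the same replicate number correlated at -0.006 to 0.012, so they shared only a number. Leaving out 1 library leaves 1 library in its group, and the logistic test then rests on reads alone.

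Limits are the pooling of mice, 2 libraries per group, the lack of mouse-level replication in the logistic test, PCR copies that cannot be told from molecules, and RRBS, which read few CpGs of Ereg, Areg and Hbegf. At 10 reads a cytosine resolves steps of 10 points. The transgene and the host stroma cannot be told apart from the endogenous gene and the tumor cells.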
